A study of Mus musculus with 8 samples.

Results

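Homologous recombination (HR) and the Fanconi pathway were represented by 38 genes of the 23337 gene names in the table, chosen by symbol for their known functions as candidates for lengthening telomeres by recombination. All 38 were found, 37 under their symbol and *Rad51b* under its older name *Rad51l1*. Messenger RNA was sequenced from 4 separately derived lines of mouse embryonic stem (ES) cells, named clones 6, 20, 30 and 36, once at passage 6 (P6) and once at passage 16 (P16), which gave 8 libraries and n = 4 per passage. All lines came from blastocysts with GFP in the *Rosa26* locus, are labelled wild type and 129S1, and were expanded *in vitro* in DMEM with LIF. No repair gene is labelled as deleted or overexpressed, telomere length is not part of these data, and each clone is 1 line with 1 library per passage, so that p-values measure the spread between these lines. The comparison asks whether transcripts of the recombination machinery changed between the early and the late passage, and the libraries were compared both as groups and within each clone.

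HR repairs a broken chromosome by copying an intact template. The ends are cut back to single strands by MRE11, RAD50 and NBN with CtIP, EXO1 and DNA2, the strands are covered by replication protein A (RPA), and BRCA2 with PALB2 and the mediator complexes of *Rad51b*, *Rad51c*, *Xrcc2* and *Xrcc3* prepares the coated strands for the search for the template. BLM, MUS81 with EME1, SLX4 and GEN1 then take the joined molecules apart, while the Fanconi proteins use the same machinery at crosslinked DNA and stalled replication forks. Cells that maintain telomeres without telomerase copy telomeric repeats by this route, and ES cells, which divide rapidly with a short G1 phase, are known for high HR activity.

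The libraries held between 21394069 and 34295561 reads on genes. The deposited values are read counts divided by 1 size factor per library, called normalized counts below. The 10 markers of ES cells with rows in register (*Pou5f1*, *Nanog* and others) summed to between 115264 and 125162 normalized counts at P6 and between 117199 and 120492 at P16, and 0 of them were at 0. The 8 fibroblast markers, as a sign of feeder cells, summed to between 3748 and 5787 at P6 and between 4394 and 5815 at P16. In such bulk libraries, fewer cells of a type and less RNA per cell cannot be told apart. In 644 groups of names in which a digit extends one name to another, 5080 names in all, the rows can differ in order between libraries. Restoring the order moved 1622 names in at least 1 library, so each of the 38 rows was checked. Of these, 36 genes lie outside such groups. *Slx4*, listed with *Slx* and *Slx1b*, had 1 count in each of the 8 libraries that left the lines in order, the listed one. *Rad54l* could hold its listed count of between 1647 and 1993 or that of *Rad54l2*, between 3288 and 3662, and the order of the lines left both open. For this gene both rules for settling ties took the listed value of clone 6 at P6 as the reference. That it kept the listed count in every library under both rules is therefore no independent check. Under these rules, putting the rows in order moved 0 counts of the 38 genes.

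All 38 genes were expressed in every library. The lowest normalized count of any of them was 113, and the mean over the 8 libraries lay between 133 for *Rad51b* and 11821 for *Rpa1*. The median of the means was 606 over all 14791 names tested, and 32 of the 38 genes lay above it. To compare genes with each other, the means were divided by the length of the merged coding-transcript exons. On this scale the median of the 38 genes was 364 normalized counts per kilobase against 184 over 14640 names with a length, and 33 of the 38 lay above the latter.

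The highest levels per kilobase belonged to RPA, the complex that coats single-stranded DNA. *Rpa1*, its large subunit, had a mean of 2299.9 and lay between 1878 and 2627 per kilobase in single libraries, *Rpa2* had 1855 and *Rpa3*, the small subunit, 1238. *Topbp1*, which activates the ATR kinase and is needed to start replication, followed *Rpa2* with 1494, and *Blm*, the helicase mutated in Bloom syndrome, followed *Rpa3* with 1046. The ranges of *Rpa1* and *Rpa2* between libraries overlapped, and so did those of *Topbp1* and *Rpa3* and of *Rpa3* and *Blm*. At the other end stood *Rad51b* with 37.8 per kilobase, below all others of the 38 genes in every library. *Wrn*, the helicase and exonuclease of Werner syndrome, had 79.1, *Fancc*, of the Fanconi core complex, 85.8, *Rad51c* 142 and *Xrcc3* 183. The ranges of *Wrn* and *Fancc* overlapped each other, and that of *Xrcc3* overlapped those of *Mus81*, *Rad54b* and *Gen1*, with means of 187, 194 and 198. *Xrcc3* reached 204.97, above the lowest values of *Xrcc2* (204.05) and *Brca2* (155), so that it was not set apart from any of these genes. The lowest value of *Brca2* also lay below the highest of *Rad51c* (163). *Xrcc2*, which acts in 1 complex with *Rad51b* and *Rad51c*, had 242.

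**Figure D1:**
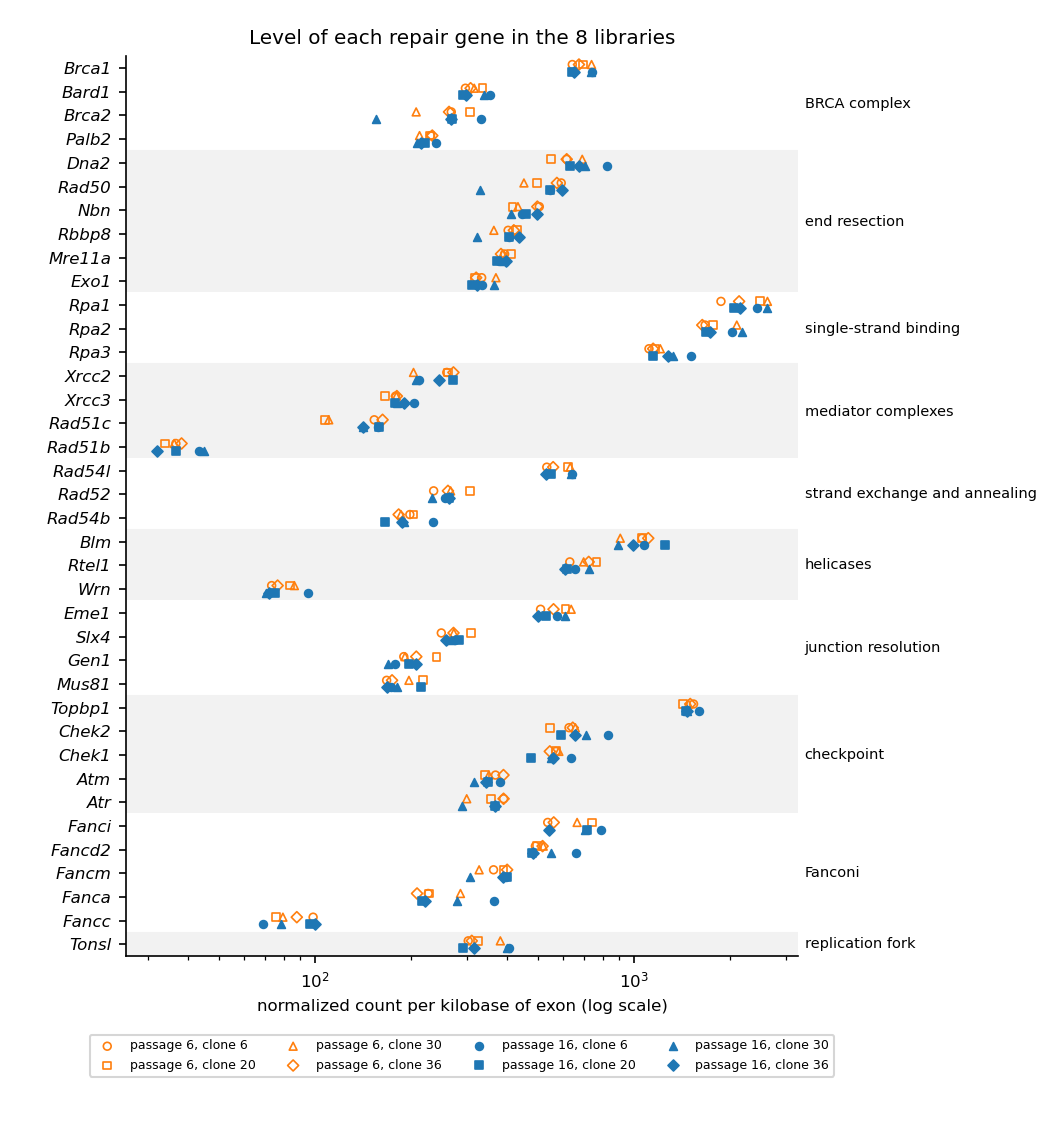
Normalized count per kilobase of exon (log axis) of each of the 38 genes, grouped by role, with 1 symbol for each of the 8 libraries (open, passage 6; filled, passage 16; the shape gives the clone). The 3 RPA genes, *Topbp1* and *Blm* stand highest and *Rad51b* lowest, and open and filled symbols of each gene overlap.

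The depth behind these levels was lowest for *Rad51b*, with 97 reads in the P6 library of clone 6, for which the exact 95% Poisson interval runs from 81.1% to 122% of the count. This interval covers counting error only, and 7 of the 38 genes had fewer than 500 reads in at least 1 library. Exons of 11 of the genes overlap exons of a gene on the opposite strand. The libraries mark strand, but whether the counting used it is not given in the sources used here. The overlap is largest for *Fanci*, where 13.4% of the exon bases lie opposite *Polg*, followed by *Eme1* with 12.1% and *Fanca* with 8.62%. *Rad54b* shares 39.1% of its exon bases with *Fsbp* on the same strand, so that its values are uncertain as levels of *Rad54b* alone.

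No gene of the 38 passed the test between passages. With limma on log2(normalized count + 1) and Benjamini-Hochberg adjustment over all 14791 names, 0 of the 38 genes were called at an adjusted p under 0.05, against 0.00676% of all names, and adjusted p-values lay between 0.947 and 1.00. At an unadjusted p under 0.05 there were 0 of 38 in limma, against 3.5% of all names, and 0 in edgeR and DESeq2, which also called 0. The log2 difference (P16 minus P6) was above 0 for 20 genes and below 0 for 18, between -0.14 for *Gen1* and 0.19 for *Dna2*. Its median was 0.0013, beside -0.0037 over all names tested. The 95% intervals of the difference lay within 0.5 of 0 on either side for 34 of the 38 genes and within 1 for all 38, with outermost bounds of -0.60 for *Brca2* and 0.57 for *Fanca*. P6 and P16 values overlapped for each of the 38 genes, so that 0 were separate, against 2.43% of all names. With the clone as a term, which pairs the libraries, limma again gave 0 genes at an unadjusted p under 0.05, and the lowest adjusted p-value was 0.726. With that term *Dna2* had an unadjusted p of 0.0317 in DESeq2 and 0.0495 in edgeR, with adjusted p-values of 0.510 and 0.749.

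**Figure D2:**
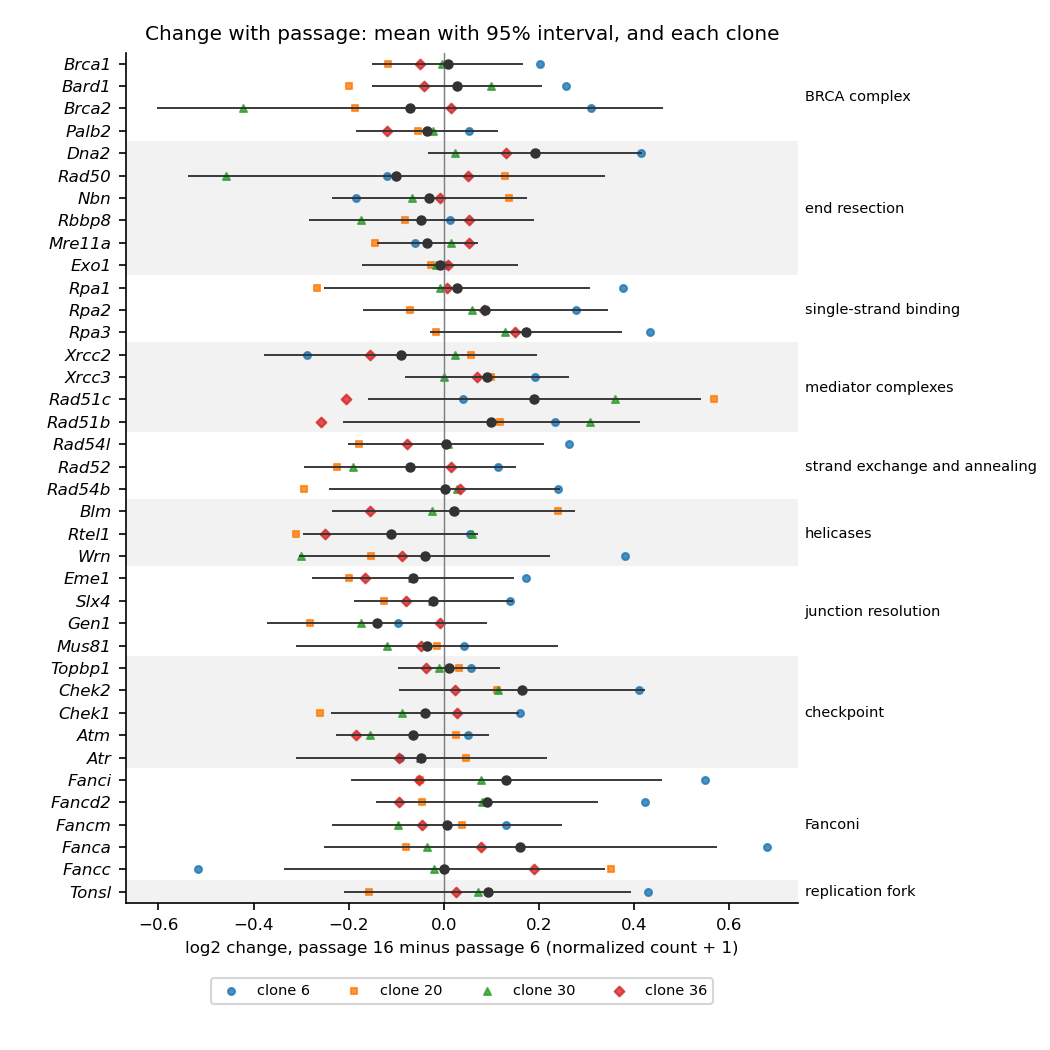
Log2 difference between passage 16 and passage 6 for each of the 38 genes, grouped by role: black points with bars are the limma estimate with its 95% interval over n = 4 clones per passage, and coloured symbols are the differences within each clone. Each of the 38 bars crosses 0, and the symbols of clone 6 stand farthest to the right for many genes.

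The same direction in 4 of 4 clones was found for 4 genes. *Dna2*, *Chek2* and *Xrcc3* were higher at P16 in each clone, as were 7.81% of all names, and *Gen1* was lower in each, as were 9.42%. In limma with the clone as a term, the unadjusted p was 0.0523 for *Dna2*, 0.0925 for *Chek2*, 0.251 for *Xrcc3* and 0.0882 for *Gen1*. Values are given below in the order of clones 6, 20, 30 and 36, and positions of whole genes are those of RefSeq on GRCm38, with the strand from GENCODE M21.

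*Dna2* (chr10:62946983-62974188, plus strand), the nuclease and helicase that cuts back ends over long stretches and processes replication intermediates, had 2540.2, 2275, 2843 and 2542 normalized counts at P6 and 3388, 2604, 2891 and 2782 at P16. The highest value was that of clone 6 at P16, and the P16 value of clone 20 lay among the P6 values (log2 difference 0.19, SE 0.10, unadjusted p = 0.0854 in limma, fold 1.14). With the clone as a term, the unadjusted p of *Dna2* was 0.0523 in limma, 0.0317 in DESeq2 and 0.0495 in edgeR. In an exact two-sided permutation test of 4 against 4 libraries it had p = 0.0857, the lowest of the 38 genes, where the smallest p possible is 0.0286. The other resection genes had differences between -0.10 and -0.0077. *Rad50* (chr11:53649519-53707319, minus strand), whose product tethers the ends, had 3055, 2570.4, 2333 and 2960.0 at P6 and 2810.3, 2808, 1698 and 3065 at P16, and its lowest library was clone 30 at P16 (log2 difference -0.10, SE 0.19, unadjusted p = 0.613 in limma). Without that library its difference was 0.092 in place of -0.10. *Mre11a*, the nuclease of the same complex, varied least of the 38 genes, between 2149 and 2378, while *Nbn*, a further subunit, lay between 1048 and 1281. *Rbbp8*, which encodes CtIP, lay between 1224 and 1655, and *Exo1*, an exonuclease for long stretches, between 2431 and 2884.

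The 3 RPA genes had mean differences above 0 with the deposited, TMM and quantile scaling, none past the test, and in clone 20 all 3 were lower at P16. That of *Rpa1* was below 0 without clone 6 (-0.089), the P6 library of clone 6 (-0.063) or the P16 library of clone 30 (-0.033). Without any other clone or library it stayed above 0. *Rpa3* (chr6:8255936-8259141, minus strand) had the lowest p of the 38 genes, with 748, 780.2, 812 and 771 at P6 and 1010.4, 771, 888 and 856 at P16. Its P6 values lay close together, clone 20 did not follow the other 3 clones, and clone 6 at P16 was the highest library (log2 difference 0.17, SE 0.087, unadjusted p = 0.0823 in limma). For *Rpa1* the values were 9653, 12775, 13502 and 11004 at P6 and 12529.5, 10624, 13431 and 11052 at P16, which overlap across their whole range (log2 difference 0.027, SE 0.12, unadjusted p = 0.827 in limma). *Rpa2* had 3037, 3211, 3816 and 2975 at P6 and 3680.4, 3057, 3975 and 3155 at P16, with both libraries of clone 30 the highest of their passage (log2 difference 0.087, SE 0.11, unadjusted p = 0.455 in limma).

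Among the BRCA genes, *Brca1*, a ubiquitin ligase that promotes resection, lay between 4212 and 4856 over all libraries (difference 0.0080). Its partner *Bard1* lay between 1656 and 2006 (0.028), and *Palb2*, which joins BRCA1 to BRCA2, between 829 and 946 (-0.036). *Brca2* (chr5:150522297-150570147, plus strand), whose loss leaves cells unable to complete HR, had the widest range of the 38 genes and the only one above 1 on the log2 scale, 1.10. It had 2874, 3287, 2231 and 2828 at P6 and 3560.2, 2886, 1664 and 2860.1 at P16, with clone 30 lowest at both passages (log2 difference -0.071, SE 0.23, unadjusted p = 0.765 in limma). The log2 difference within clones was 0.31 in clone 6, -0.19 in clone 20, -0.42 in clone 30 and 0.016 in clone 36, so that the clones went in both directions.

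The products of *Rad51b*, *Rad51c*, *Xrcc2* and *Xrcc3* form a pair of mediator complexes that assist strand exchange. *Rad51c*, a member of both complexes, had 661, 463, 476 and 702 at P6 and 679.8, 687, 611 and 609 at P16, where the P6 values split into a high pair, clones 6 and 36, and a low pair, clones 20 and 30 (log2 difference 0.19, SE 0.15, unadjusted p = 0.245 in limma). *Xrcc3* (chr12:111803192-111813893, minus strand) had 434, 403, 437 and 438 at P6 and 496, 431, 437 and 460.1 at P16. It was higher in each clone, but in clone 30 by only 0.0013 on the log2 scale (log2 difference 0.091, SE 0.075, unadjusted p = 0.261 in limma). For *Rad51b* the values were 129.6, 119.8, 128 and 135 at P6 and 153, 130.1, 159 and 113 at P16, with clone 36 the lowest at P16 and the highest at P6 (log2 difference 0.10, SE 0.14, unadjusted p = 0.482 in limma). *Xrcc2* lay between 721 and 962 (difference -0.091). Of the strand exchange and annealing genes, *Rad54l*, a motor protein that acts on DNA during strand exchange, had 1661, 1941, 1967 and 1739 at P6 and 1993, 1716, 1979 and 1647 at P16, which overlap fully (log2 difference 0.0039, SE 0.089, unadjusted p = 0.966 in limma). *Rad54b*, a relative of it, had a difference of 0.0016 and *Rad52*, an annealing protein, one of -0.071.

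Of the helicases, *Rtel1*, which unwinds telomere loops and restrains recombination, had 2790.1, 3383, 3083 and 3198 at P6 and 2899.7, 2726, 3211 and 2689 at P16. It was lower at P16 in clones 20 and 36 and higher in clones 6 and 30 (log2 difference -0.11, SE 0.080, p = 0.257 in the exact permutation test). *Blm* had 5255, 5252, 4490.4 and 5495 at P6 and 5329, 6203, 4415 and 4937 at P16, with clone 30 lowest at both passages and clone 20 highest at P16 (log2 difference 0.020, SE 0.11, unadjusted p = 0.858 in limma). For *Wrn* the values were 518, 593, 611 and 541 at P6 and 675, 533, 496 and 509 at P16, with clone 6 at P16 above all other libraries (log2 difference -0.040, SE 0.11, unadjusted p = 0.735 in limma). Without clone 6 its difference was -0.18.

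The 4 genes that resolve joined molecules had mean differences below 0 with the deposited, TMM and quantile scaling, none past the test. That of *Slx4* was above 0 without clone 20 (0.012), the P6 library of clone 20 (0.033) or the P16 library of clone 36 (0.0012). Without any other clone or library it stayed below 0. Such fits were not followed for *Mus81* and *Eme1*, whose differences were smaller than their SE (0.12 and 0.092). All 4 were lower at P16 in clones 20, 30 and 36, while 3 of the 4 were higher in clone 6. *Gen1* (chr12:11238928-11266029, minus strand), a nuclease that cuts Holliday junctions, had 1002, 1269, 1011 and 1097 at P6 and 938, 1044, 896 and 1091 at P16, lower in each clone but with a log2 difference of only -0.0072 in clone 36 (log2 difference -0.14, SE 0.10, p = 0.257 in the exact permutation test). *Slx4*, the scaffold that holds several nucleases and binds the shelterin protein TRF2, had 1423, 1761, 1558 and 1554 at P6 and 1567, 1615, 1531 and 1472 at P16, where clone 6 was higher and the other 3 clones lower (log2 difference -0.022, SE 0.072, unadjusted p = 0.765 in limma). *Mus81*, a nuclease subunit, lay between 347 and 451 (difference -0.035), and its partner *Eme1* between 1222 and 1557 (-0.065).

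Among the checkpoint genes, *Chek2* (chr5:110839800-110874140, plus strand), a kinase that relays the signal of ATM, had 1427, 1246, 1494 and 1466 at P6 and 1897, 1347, 1615 and 1490.0 at P16. The values of clone 6 at P16 and clone 20 at P6 stood at the ends, and those between them overlapped (log2 difference 0.16, SE 0.11, unadjusted p = 0.180 in limma). *Atm*, the kinase activated at breaks, had 3691, 3429.9, 3517 and 3909 at P6 and 3823, 3491, 3159 and 3438 at P16, lower in clones 30 and 36 and slightly higher in the others (log2 difference -0.066, SE 0.070, unadjusted p = 0.373 in limma). *Topbp1* had 8049, 7443, 7749 and 7859 at P6 and 8371, 7614, 7696 and 7661 at P16, with clone 6 highest at both passages (log2 difference 0.011, SE 0.046, unadjusted p = 0.824 in limma). *Chek1* and *Atr*, the kinases of the replication checkpoint, had differences of -0.040 and -0.047, the first between 1851 and 2481 and the second between 2377 and 3211.

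The 5 Fanconi genes had differences from 0.00097 for *Fancc*, which lay below 0 with quantile normalization, to 0.16 for *Fanca*, none past the test. In clone 6, 4 of the 5 were higher at P16, and in each other clone 2 of the 5. *Fanca* (chr8:123266294-123318651, minus strand), of the core complex, had 1454, 1465, 1834 and 1341 at P6 and 2330.5, 1387, 1789 and 1415 at P16, and the library of clone 6 at P16 stood above all others (log2 difference 0.16, SE 0.18, unadjusted p = 0.395 in limma). *Fancc* had 481, 368, 387 and 428 at P6 and 336, 471, 381 and 488 at P16, with clone 6 at P16 the lowest library, the reverse of *Fanca* (log2 difference 0.00097, SE 0.15, unadjusted p = 0.995 in limma). Without clone 6 the difference of *Fancc* was 0.17 and that of *Fanca* -0.012. Without only the P16 library of clone 6 the difference of *Fanca* was 0.0069. *Fancd2* and *Fanci*, whose products form the clamp that the core complex ubiquitinates, lay between 2649 and 3637 and between 2669.8 and 3909, each highest in clone 6 at P16. *Fancm*, a translocase that anchors the core complex, lay between 2383 and 3119. The replication fork gene *Tonsl*, whose product binds new histones behind the fork, lay between 1237 and 1727, with a difference of 0.092.

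Within single clones the picture differed from clone to clone. In clone 6, 31 of the 38 genes were higher at P16, against 49.3% of all names tested, and the median difference was 0.15 on the log2 scale. In clone 20 it was 14 of 38 with a median of -0.053, in clone 30 16 of 38 with -0.013, and in clone 36 17 of 38 with -0.022. Of the 12283 tested names outside the groups, 49.4%, 47.8% and 50.4% were higher in these clones. Without clone 6, 10 of the 38 genes were higher and 28 lower at P16, with a median of -0.033. The share of all names was not counted for that fit, so that a shift of all names cannot be told apart from one of these genes. The other 3 clones, left out in turn, gave between 18 and 22 genes higher. In clone 6 the largest differences were those of *Fanca* (0.68), *Fanci* (0.55), *Rpa3* (0.43), *Tonsl* (0.43) and *Fancd2* (0.42), and *Fancc* (-0.52) went the other way. By role, all 4 BRCA genes, all 3 RPA genes, all 3 helicases and all 3 strand exchange and annealing genes were higher there, and so were 4 of 5 checkpoint genes, 4 of 5 Fanconi genes, 3 of 4 mediator genes, 3 of 4 junction genes and 3 of 6 resection genes. A single pair of libraries per clone gives no test within a clone.

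Replication genes moved with the repair genes in clone 6. Of 35 DNA replication and S phase genes outside the groups (MCM, GINS and polymerase genes and others), 31 were higher at P16 in clone 6, with a median of 0.18, and of 14 mitotic genes 10 were higher, with a median of 0.067. Of 43 other HR and Fanconi genes 23 were higher, with a median of 0.065. Whether the share of cells in S phase had a part in the difference of clone 6 was not tested. The S phase genes also lay higher at P16 in clone 30 (25 of 35) and clone 36 (23 of 35), where 16 and 17 of the 38 repair genes did. In clone 20, 13 of the 35 S phase genes were higher at P16, with a median of -0.044, beside 14 of the 38 repair genes. The mitotic genes were not set apart in clone 6. In clone 20, 10 of the 14 were also higher, with a median of 0.12, in clone 30 it was 7 and in clone 36 it was 9. Over the 12283 tested names outside the groups, the deviations of both clone 6 libraries from their passage means were correlated with r = 0.096, below the r = 0.28 of the P6 library of clone 6 with clone 36 at P16, while the other clones had r between 0.27 and 0.70 with themselves. That both libraries labelled clone 6 come from 1 line rests on the label.

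**Figure D3:**
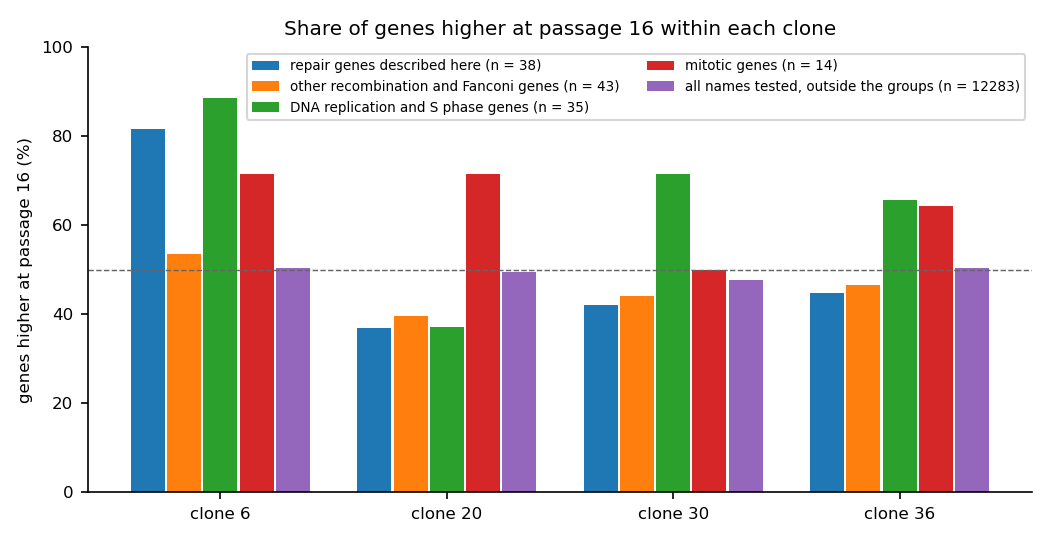
Percentage of genes with a higher normalized count at passage 16 than at passage 6 within each clone, for the 38 repair genes, 3 comparison lists and all tested names outside the groups of names; the dashed line marks equal shares. In clone 6 the bars of the repair genes and of the S phase genes stand far above that of all names, and in the other clones the bars of the repair genes lie below it.

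Promoters were examined because E2F factors, which bind letters such as TTTCCCGC, drive many genes of replication and repair at the start of S phase. RefSeq promoters (GRCm38.p6, 250 bases before to 50 after the start) were at hand for 29 of the 38 genes. The letters TTTCCCGC, TTTGGCGC, TTTCGCGC or TTTGCCGC on either strand stood in the promoters of 5 of these 29, or 17.2%, which are *Brca2*, *Bard1*, *Rad51c*, *Chek2* and *Topbp1*. Of 27025 genes with a promoter 2.60% had them, and of 10418 genes with a mean of at least 10 normalized counts 4.54%. Matches are shown for the 3 genes in which the match and the 15 bases on each side all lie outside the exons of their coding transcripts in GENCODE M21. They are given 5′ to 3′ on the strand of the gene, with the matching letters in capitals, at chr5:150522438-150522475 (+) for *Brca2*, chr1:71103159-71103196 (-) for *Bard1* and chr5:110839816-110839853 (+) for *Chek2*.
Brca2: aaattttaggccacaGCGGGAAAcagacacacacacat
Bard1: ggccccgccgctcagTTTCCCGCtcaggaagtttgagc
Chek2: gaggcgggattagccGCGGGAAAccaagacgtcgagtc
The starts from which the promoters of *Brca2* and *Chek2* were taken lie downstream of the outermost starts of both genes given above. Their matches, at -168 and -152 from the promoter's start, therefore lie inside the RefSeq spans of these genes. *Brca2* and *Chek2* carry the letters in reverse complement and *Bard1* in the forward direction. All 5 genes were higher at P16 in clone 6, by 0.039 for *Rad51c* to 0.41 for *Chek2*, as were most of the 38. The letters CCAAT were found in the promoters of 16 of the 29 genes (55.2%, against 43.0% of the expressed genes) and TTTGAA or TTCGAA, known from genes of late cell cycle, in 6 of 29 (20.7%, against 15.9%). Such matches are descriptions of the letters and do not show that a factor binds there.

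Between the 8 libraries, the distance from the lowest to the highest value of a repair gene had a median of 0.43 on the log2 scale, beside 0.41 for 9053 names outside the groups that were expressed at least as high as *Rad51b*. It was under 0.5 for 29 of the 38 genes, and lowest for *Mre11a* with 0.15. After *Brca2*, the widest were *Rad50* with 0.85, *Fanca* with 0.80 and *Chek2* with 0.61.

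Differences between clones were tested with a limma F test that kept the passage as a term, a test chosen after the data had been seen. It called 0 of the 38 genes, against 0.135% of all names, with a lowest adjusted p of 0.333. At an unadjusted p under 0.05 there were 6 of 38, against 10.7% of all names, and with the row order restored 7 of 38 against 14.6%, so that the share was near the background. The 6 genes were *Atr*, *Fancm*, *Brca2*, *Exo1*, *Rad50* and *Rbbp8*. In 5 of them, all but *Exo1*, clone 30 was the lowest of the 4 clones at both passages. The mean of its libraries minus that of the other 3 clones was -0.66 on the log2 scale for *Brca2*, -0.53 for *Rad50*, -0.34 for *Atr*, -0.30 for *Fancm* and -0.28 for *Rbbp8*. *Xrcc2* (-0.30) and *Blm* (-0.28) were also lower there, while *Rpa2* (0.29), *Tonsl* (0.27), *Rpa1* (0.26) and *Fanca* (0.24) were higher.

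*Atr* (chr9:95857597-95953217, plus strand) showed this at both passages. It had 3211, 2924, 2459.9 and 3209.9 at P6 and 3012, 3021, 2377 and 3007 at P16, and at each passage clone 30 was far below the other 3 clones. *Fancm* had 2827, 3038, 2548 and 3119 at P6 and 3094, 3118, 2383 and 3021 at P16, again with clone 30 lowest both times. *Xrcc2* had 917, 924, 721 and 962 at P6 and 751, 961, 732 and 864 at P16, where clone 30 was lowest at both passages but lay close to clone 6 at P16.

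**Figure D4:**
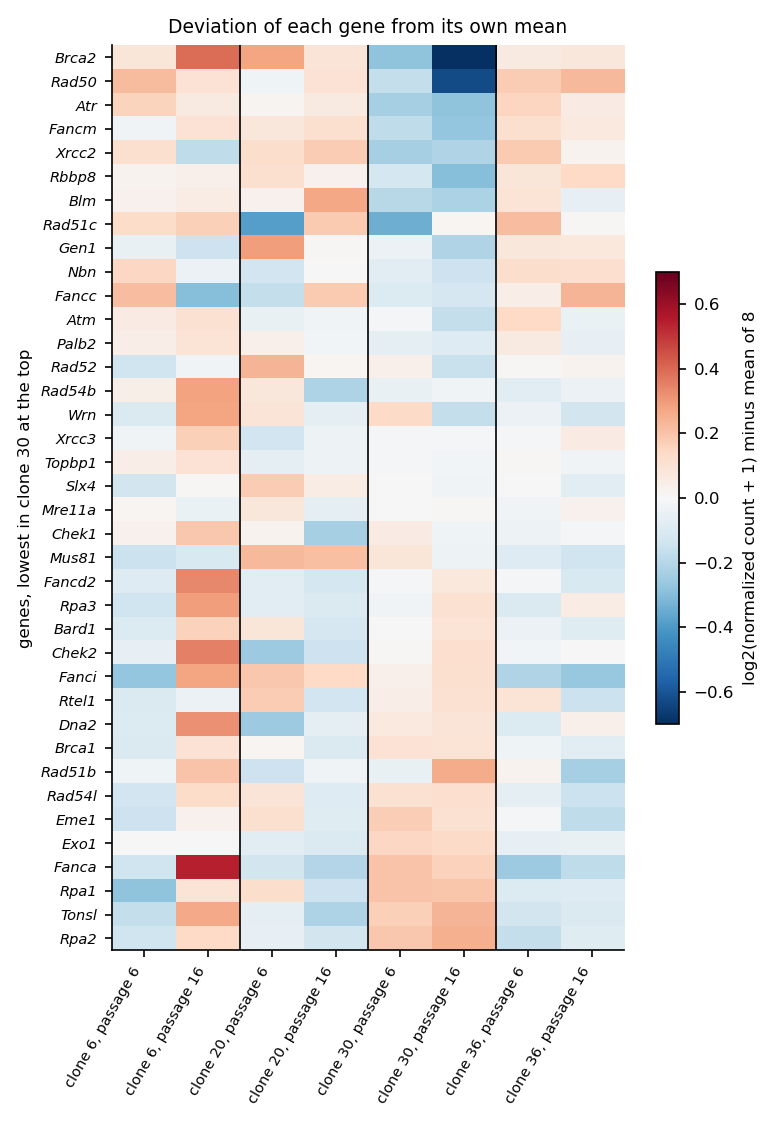
Deviation of each of the 38 genes from its own mean over the 8 libraries (log2 scale, colour), with genes ordered by their level in clone 30 and libraries grouped by clone. The columns of clone 30 run from blue at the top (*Brca2*, *Rad50*, *Atr*) to red at the bottom (*Rpa2*, *Tonsl*, *Rpa1*) at both passages, and the P16 column of clone 6 is mostly red.

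Repair genes with transcripts poor in G and C were more often lower in clone 30 than those rich in them. Of the 13 repair genes under 45% G and C, 11 were lower in clone 30 than in the other clones, with a median of -0.17, and of the 25 genes at or above 45%, 8 were lower, with a median of 0.083. *Rad50* and *Xrcc2*, at 45.2% and 47.3%, were lower although they lie above this limit, which was chosen after the values had been seen. All names outside the groups went the same way, since 69.4% of 2631 names under the limit were lower in clone 30, with a median of -0.11, against 42.8% of 9515 names above it. Across the 38 genes, Spearman's rho between G and C content and the deviation of a library was 0.53 and 0.50 for clone 30 at P6 and P16, between -0.48 and -0.14 for clones 6 and 36, and -0.011 and -0.11 for clone 20, while across 12146 names it was 0.19 and 0.20 in clone 30. Genes are not independent replicates, and within a library they share its preparation and depth. The 6 primitive endoderm markers were also lowest in clone 30 at both passages, with sums of 2348 and 1757 normalized counts, beside up to 7704 at P6 and 6357 at P16 in other clones. The 4 trophoblast markers summed highest in clone 30 at both passages, with 2953 and 3640 beside a lowest of 1846 at P6 and 2314 at P16, and 0 of them were at 0. Most of that sum was *Tfap2c*, with 2783 and 3445 in clone 30, while *Eomes*, another of the 4, was lowest in clone 30 at both passages, with 111.7 and 138.3. The 6 two-cell-like markers with rows in register (*Zscan4c* and others), which mark a rare ES cell state known for telomere recombination, summed to 2534 in clone 30 at P6, the highest of that passage beside a lowest of 680, and to 1171 at P16 within a range of 960 to 1232, with *Gm4340* at 0 in all libraries. The part of base composition and of cell makeup in the values of clone 30 was not tested.

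**Figure D5:**
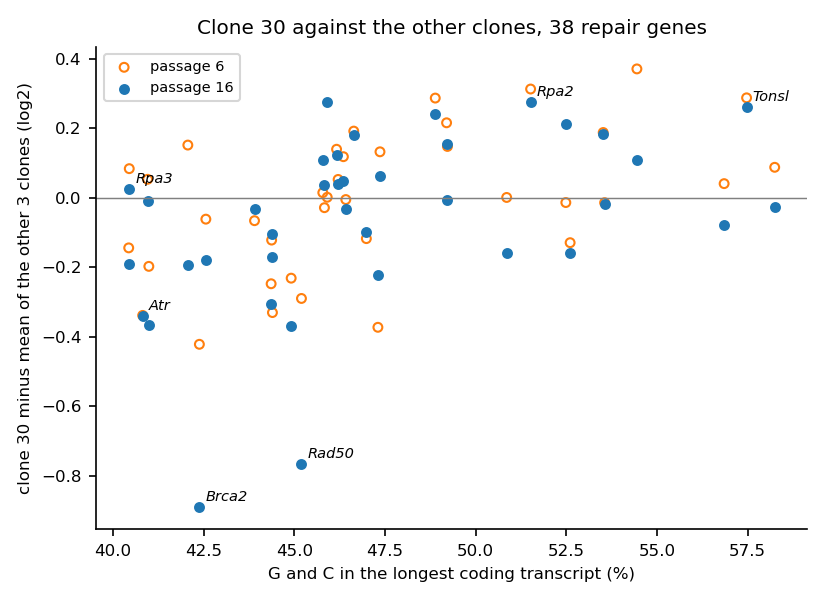
Log2 difference between clone 30 and the mean of the other 3 clones at the same passage, against the percentage of G and C in the longest coding transcript, for the 38 repair genes (open, passage 6; filled, passage 16). *Brca2* and *Rad50* at passage 16 are the lowest points, and most points left of 45% lie below 0.

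Other genes of these processes, listed by their known function, were compared between passages in the same fit. Of 51 other HR and Fanconi genes tested, 0 were called by limma, 23 were higher and 28 lower at P16, with a median of -0.012 (23 of 43 higher outside the groups of names), and 2 had an unadjusted p under 0.05. *Shfm1*, which encodes a small partner of BRCA2, had 2147, 2183, 2103 and 2098 at P6 and 2437, 2371, 2125 and 2405 at P16 (log2 difference 0.13, SE 0.055, unadjusted p = 0.0486 in limma). *Slx1b*, the nuclease that works on the SLX4 scaffold, had 592, 581, 521 and 576 at P6 and 469, 532, 488 and 488 at P16 (log2 difference -0.20, SE 0.073, unadjusted p = 0.0270 in limma), but its row lies in a group of names. Of 15 end joining genes, 0 were called and 0 had an unadjusted p under 0.05. Of 36 DNA replication and S phase genes 0 were called and 28 were higher, with a median of 0.048 and *Gins3*, a subunit of the replicative helicase, was the only one with an unadjusted p under 0.05 (log2 difference 0.20, SE 0.081, unadjusted p = 0.0413 in limma). Of 15 mitotic genes 0 were called, and only the cyclin gene *Ccnb2* had an unadjusted p under 0.05 (log2 difference 0.20, SE 0.084, unadjusted p = 0.0423 in limma).

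Genes known from telomere recombination in cells without telomerase were also followed. Of 16 such genes outside the 38, 0 were called by limma, with 6 higher, 10 lower and a median of -0.080, and 2 had an unadjusted p under 0.05, both lower at P16. *Pml*, the scaffold of nuclear bodies in which such telomeres gather, had 6085, 6227, 6394 and 6215 at P6 and 5779, 5479, 5663 and 5369 at P16, with all P16 values below all P6 values (log2 difference -0.16, SE 0.040, unadjusted p = 0.00373 in limma). DESeq2 called it with an adjusted p of 0.0249, and limma gave an adjusted p of 0.947. *Terf1*, which encodes the shelterin protein TRF1, had 3509, 3167, 3119 and 3071 at P6 and 2828, 2897, 2618 and 3111 at P16, lower in all but clone 36 (log2 difference -0.17, SE 0.068, unadjusted p = 0.0388 in limma). With the clone as a term, DESeq2 also called *Atrx*, a chromatin remodeller whose loss accompanies recombination at telomeres, which was lower by a log2 difference of -0.29 (adjusted p = 0.0286), while limma gave it no call.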

How the data were processed

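According to the study's methods, polyA+ RNA was made into strand-marking libraries, and 50-base reads from 1 end were mapped on GRCm38 by TopHat2 (version 2.0.10), Bowtie (1.0.0) and SAMtools (0.1.19), then counted per gene with HTSeq (0.5.3p9) and analysed with DESeq2. The methods also name a second strain for some ES clones, while the labels of all 8 samples give 129S1. The authors deposited 1 signal value per gene and library, a read count that had been divided by the size factor of its library. Undoing that division gave whole reads, within 0.001, for 100% of the values, and 0 columns of per-sample values were left unused.

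The test was limma 3.58.1 in R 4.3.3 (lmFit and trended eBayes) on log2(normalized count + 1) over names with a mean of at least 10, two-sided, with Benjamini-Hochberg adjustment over the whole table and a threshold of 0.05. This scale understates changes of low genes. Alternatives were edgeR 4.0.16 and DESeq2 1.42.0 on the recovered reads, a pseudocount of 0.5 or 10, dropping the filter or raising it to a mean of 100, TMM, quantile normalization, untrended eBayes, the clone as a term, the row order restored, and fits without each library or clone. The scripts were tested on simulated data. Exact permutation tests, summaries and figures used scipy 1.17.1, pandas 2.3.3, numpy 2.4.6 and matplotlib 3.10.9 in Python 3.11.15.

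Samples were grouped by the passage in their titles and paired by the clone number there, which by the labels marks 1 line at both passages. Deviations from the passage means over 12283 names correlated within clones 6, 20, 30 and 36 with r = 0.096, 0.27, 0.70 and 0.43. Exon lengths come from GENCODE M21 and promoters from RefSeq, both on GRCm38. The genes and lists were chosen with earlier results of these data known. Named with values in every library were the 8 genes with the lowest p, those alike in 4 of 4 clones, those in groups of names, the 5 highest and 5 lowest per kilobase and the 4 with the widest range, and of each comparison list those with an unadjusted p under 0.05. Values in every library of *Atr*, *Fancm* and *Xrcc2* were added after they had been seen.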

Additional observations from a re-analysis of the deposited data

Results flagged for a closer look

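In each passage, the lowest and the highest of the 4 libraries were compared with the nearest other library for each of the 38 repair genes, which makes 76 groups of 4. In 6 of them the gap took a larger share of the group's range than Dixon's 95% limit, which chance passes in about 1 group in 20. Clone 30 at P16 stood below the other libraries for *Atr* (2377 normalized counts against 3007 to 3021, a share of 0.98), *Fancm* (2383 against 3021 to 3118, 0.882) and *Rad50* (1698 against 2808 to 3065, 0.852), and at P6 for *Xrcc2* (721 against 917 to 962, 0.833). Without the library in question, the log2 difference between passages was 0.038 for *Atr* in place of -0.047, 0.099 for *Fancm* in place of 0.0064, 0.092 for *Rad50* in place of -0.10 and -0.18 for *Xrcc2* in place of -0.091. Clone 20 at P6 stood below the others for *Xrcc3* (403 against 434 to 438, 0.892), without which its difference was 0.062 in place of 0.091. Clone 6 at P16 stood above the others for *Topbp1* (8371 against 7614 to 7696, 0.887), without which its difference was -0.021 in place of 0.011.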

How the results depend on the processing

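In 28 alternatives of the comparison between passages, 0 of the 38 repair genes were called, and the median of their differences stayed between -0.034 and 0.021. At most 2 had an unadjusted p under 0.05, which were *Dna2* in 5 alternatives and *Rpa3* in 2. Those of *Dna2* included the fits with the clone as a term in DESeq2, edgeR and, with the row order restored, limma. Of 558 values of the 20 named genes, 555 kept their direction or moved less than the spread and 3 moved further, which were *Wrn* and *Fancc* without clone 6 and *Rad50* without the P16 library of clone 30. Over all names, limma called 1. DESeq2 called 44, and with the replicate block, the clone as a term, limma called 0 (884 with an unadjusted p under 0.05), edgeR 2 and DESeq2 98. With the row order restored, under both rules for ties and with the replicate block, and for names outside the groups, limma called 0 (513, 516, 1156 and 436 with an unadjusted p under 0.05). Without single libraries or clones the count ran from 1 to 26, the highest without clone 30. Of the comparison lists DESeq2 called 1 gene, and 2 with the replicate block. The test of clones called 20 names as deposited, 89 with the row order restored and 62 outside the groups. The cause of these shifts was not tested. The block changed no call of the 38 genes. With 4 clones, differences inside the intervals given could not be detected, and protein levels were not measured.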
